A study of Homo sapiens with 4 samples.

Results

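The cytoplasmic tyrosine kinases of the TEC and SRC families and their relative SYK were described in NCI-H1048, a long-established cell line from a human small cell lung cancer of the tuft cell-like type. The 9 genes were chosen by symbol: BMX, TEC and BTK of the TEC family, SRC, YES1, FYN, LYN and LCK of the SRC family, and SYK. They are 9 of 35979 gene symbols in the deposited tables, each had a single row, and 7 of them reached a mean normalized count of at least 20 over the 4 libraries. LCK and BTK did not, with means of 10.2 and 1.43. Poly(A) RNA was sequenced from cells given a guide RNA (gRNA) that targets COLCA2, labelled COLCA2 knockout (2 libraries, made with different guides), a gRNA against POU2F3, labelled POU2F3 knockout (1 library), or a non-targeting gRNA, labelled WT (1 library, called the control from here on). The guides are called COLCA2 guide 1, COLCA2 guide 2 and the POU2F3 guide here. The labels name no drug treatment, time after delivery or single-cell cloning, and do not say whether the 2 COLCA2 libraries came from separate cultures.

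SRC family kinases sit at the inner face of the cell membrane, where they relay signals from receptors and adhesion sites, and CSK holds them inactive by phosphorylating their tail. TEC family kinases bind PIP3, the membrane lipid made by PI3-kinases, and are switched on by SRC family kinases. They then activate phospholipase C gamma, often on a scaffold that SYK-type kinases phosphorylate. TEC, BTK, LCK and their adaptors are best known from blood cells and BMX from endothelium and bone marrow. BMX has also been listed among genes of tuft cells, the rare chemosensory epithelial cells whose identity depends on POU2F3. COLCA2 encodes a co-activator of POU2F3, a POU factor of the OCT type, and OCT-type factors bind the octamer ATGCAAAT.

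Depth was 21587741 to 29632382 reads assigned to genes per library, recovered from the normalized counts. POU2F3 itself was counted at 14602 in the control, 3677 and 2351 with COLCA2 guides 1 and 2, and 1449 with the POU2F3 guide, on the normalized scale. COLCA2 stood at 5585, 3119, 3541 and 1393 in these libraries. Of 18 tuft markers 14 reached the same minimum, and their log2 ratios to the control had a median of -2.01 with the POU2F3 guide and -1.12 and -1.42 with COLCA2 guides 1 and 2. The 12 leukocyte markers summed to normalized counts of 179 to 315 per library, CD3D and CD3E were listed at 0 in every library, and PTPRC stood between 8.29 and 16.2. The 6 endothelial markers summed to 76.7 to 100.3, and KDR was listed at 0 throughout. In bulk RNA, fewer cells expressing a gene and less of its RNA per cell cannot be told apart.

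The promoters of BMX and TEC, the members past the minimum that were at least 2-fold lower with the POU2F3 guide, are shown first, because the perturbed factor has a known sequence preference. RefSeq windows reaching from 250 bases before to 50 after an annotated start (GRCh38.p14) matched 7 of the 9 members, with 15 windows. SRC and LYN had no window and were not searched. No window lay at the GENCODE gene start of BMX, 15464246. The stretches below end before the start site, so that no annotated exon is printed. In the BMX stretches capitals mark ATGCAAAT, searched on both strands, and in the TEC stretch they mark the GC box GGGCGG, searched likewise with overlapping matches counted.
BMX start 1, chrX:15500557-15500806, plus strand: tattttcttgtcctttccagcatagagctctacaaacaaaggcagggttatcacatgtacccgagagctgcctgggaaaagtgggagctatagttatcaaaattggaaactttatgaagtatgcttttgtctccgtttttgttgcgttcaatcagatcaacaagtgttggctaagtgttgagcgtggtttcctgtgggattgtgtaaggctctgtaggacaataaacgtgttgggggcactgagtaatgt
BMX start 2, chrX:15507058-15507307, plus strand: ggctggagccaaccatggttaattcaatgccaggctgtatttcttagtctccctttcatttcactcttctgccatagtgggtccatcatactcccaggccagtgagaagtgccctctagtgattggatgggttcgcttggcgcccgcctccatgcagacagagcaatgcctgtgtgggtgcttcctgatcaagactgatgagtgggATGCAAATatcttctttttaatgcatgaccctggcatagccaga
TEC, chr4:48269865-48270088, minus strand: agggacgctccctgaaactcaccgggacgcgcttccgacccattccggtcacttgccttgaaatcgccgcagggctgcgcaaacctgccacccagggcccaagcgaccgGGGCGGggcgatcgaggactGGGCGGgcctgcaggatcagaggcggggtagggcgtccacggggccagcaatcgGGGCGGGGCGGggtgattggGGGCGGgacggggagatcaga

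Of the 7 members with windows, BMX alone had a match to the octamer. It lay 44 to 37 bases before the second BMX start (chrX:15507264-15507271), on the strand of the gene. That octamer stood in 1.77% of all 35116 promoter windows of this length, and in 1 of the 15 windows of the members. Among 48 related kinase, adaptor and regulator genes with windows, GAB2 alone held a match, on the opposite strand. The BMX windows held 43.7% and 49.0% G and C, no GC box, and the TEC window 71.7% with 7 GC boxes, 5 of them in the printed stretch. GGGCGG stood in 44.95% of all windows. A match is a description of letters and no evidence of binding, and gene-level counts do not tell which start was used.

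**Figure D1:**
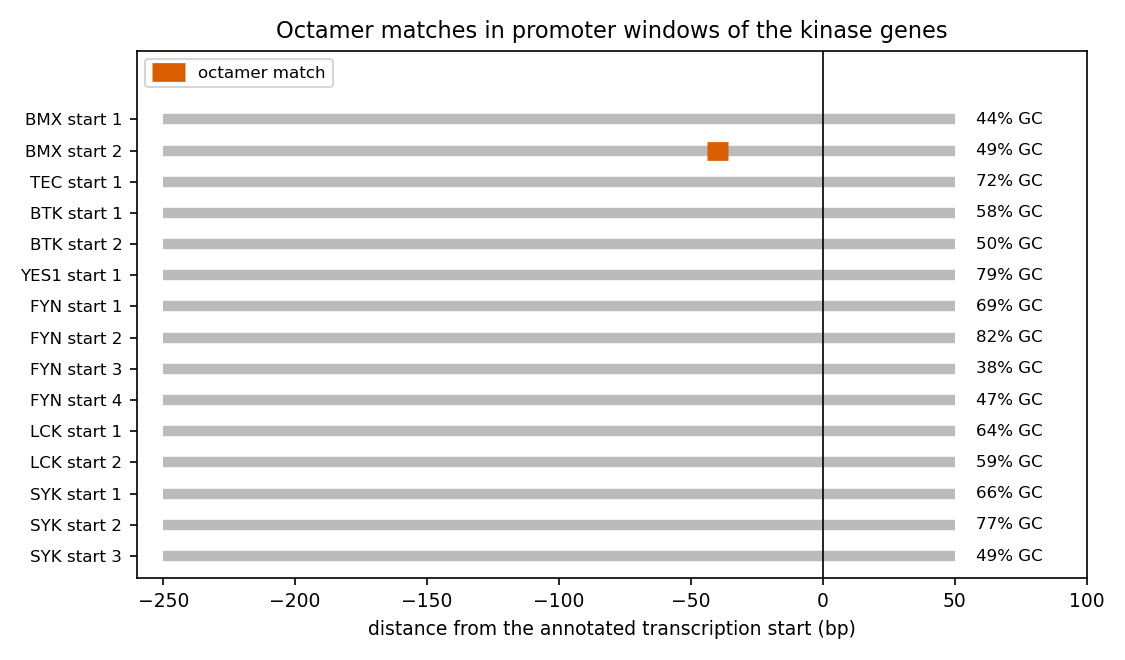
Promoter windows of the 7 matched members, drawn by distance from each annotated transcription start in base pairs, with the G and C content at the right. The orange block is the only octamer match among the 15 windows, 44 to 37 bases before the second BMX start.

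BMX, a TEC family kinase, was the member that differed most from the non-targeting library. BMX (ENSG00000102010) lies on the plus strand of chromosome X at 15464246 to 15556529 in GRCh38. Its normalized count, the scale of all counts below unless reads are named, was 771 in the control, 273 with COLCA2 guide 1, 162 with COLCA2 guide 2 and 41.1 with the POU2F3 guide. All 3 targeted libraries stood below the control, and the POU2F3 guide's library below both COLCA2 libraries.

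The BMX level with the POU2F3 guide was 5.34% of that in the control, from 49 and 807 reads. Its exact 95% interval was 3.92% to 7.12%, and this and all later intervals cover counting error alone. On the log2(normalized count + 1) scale the ratio was -4.20, and 16 of the 14940 genes past the minimum had a lower one. With COLCA2 guide 1 the level was 35.4% (30.7% to 40.7%) and with guide 2 it was 21.1% (17.5% to 25.3%), and the log2 ratios averaged -1.87 ± 0.53 (SD, n = 2). These guides differed from each other by 1.68-fold (1.36 to 2.08), and this counting interval left out equality. These contrasts have a single non-targeting library and a single POU2F3 library, so no replicate check exists for the control. With edgeR's quasi-likelihood test on the recovered reads, in which these lone libraries are assumed to vary like the COLCA2 pair, the adjusted p for BMX was 0.000947 with the POU2F3 guide and 0.00539 with the COLCA2 guides.

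Set directly against the COLCA2 libraries, BMX with the POU2F3 guide was at 15.1% (10.9% to 20.5%) of the level with guide 1 and 25.3% (17.9% to 35.3%) of that with guide 2. Both are past 2-fold, as were 0.924% of all genes in that direction. The edgeR test did not call this difference (adjusted p = 0.0682). The order of the libraries for BMX was the same as for POU2F3 itself, whereas COLCA2 was lower with guide 1 than with guide 2.

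BMX shares its locus with PIR, a gene on the opposite strand that overlaps it by 29319 bp, but no annotated exon of one overlaps an exon of the other. PIR was counted at 2024 in the control, 1013 and 854 with COLCA2 guides 1 and 2, and 758 with the POU2F3 guide. Its log2 ratios to the control were -0.998, -1.24 and -1.42, in the same order of libraries as BMX and smaller in size. The kit does not mark strand, and the part of PIR reads in the BMX counts was not tested. The summed endothelial markers were 100.3 in the control and 76.7 to 94.1 in the targeted libraries, with KDR at 0. VWF carried this, at 43.9 in the control and 15.9 to 21.2 in the others, and without it (a choice made after seeing the values) the sums were 56.3 and 59.1 to 72.9.

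Likeness to BMX was measured as the Euclidean distance between the 3 log2 ratios to the non-targeting library, over 12153 genes with a mean of at least 100. The nearest gene was RGS13, a regulator of G protein signalling also listed among tuft cell genes, at a distance of 0.44. RGS13 was counted at 2518 in the control, 879 and 720 with the COLCA2 guides and 128 with the POU2F3 guide. The next were SMR3B, a secreted salivary-type protein, at 0.47, and PLA2G4D, a cytosolic phospholipase A2, at 0.51.

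TEC, the kinase that names the family, was lower in the POU2F3 gRNA library alone. TEC (ENSG00000135605) lies on the minus strand of chromosome 4 at 48135783 to 48269864. It was counted at 53.5 in the control, 54.9 and 57.6 with COLCA2 guides 1 and 2, and 15.1 with the POU2F3 guide. The 2 COLCA2 libraries and the control lay close together, and the POU2F3 gRNA library stood apart below them.

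The level of TEC with the POU2F3 guide was 28.3% of the control, with an exact counting interval of 15.6% to 48.8%, since it rests on 18 against 56 reads. The log2 ratio was -1.76, and 142 of 14940 genes had a lower one. It was 27.5% (15.2% to 47.7%) of COLCA2 guide 1 and 26.2% (14.4% to 45.8%) of COLCA2 guide 2. Under COLCA2 targeting the log2 ratio of TEC averaged 0.072 ± 0.048 (SD, n = 2), and the counting intervals ran from 69.2% to 152% and from 71.9% to 161% of the control. The edgeR test did not call TEC, with an adjusted p of 0.0645 against the control and 0.182 against the COLCA2 group. A minimum mean of 100 left TEC out.

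TXK, a TEC family kinase of T cells that lies 1526 bp from TEC on the same strand, had 6 reads in the control and 12 to 21 in the others, below the minimum. The named gene nearest to TEC in its 3 ratios was SPRED3, an inhibitor of RAS-MAPK signalling, at 0.58, with a log2 ratio of -1.32 with the POU2F3 guide. The clone-named gene AC012314.8 was nearer, at 0.31, and AC011511.4 was the third at 0.76.

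BTK, the kinase of B cell receptor signalling, had 6 reads in the control and was listed at 0 in the 3 targeted libraries. The counting intervals of its level reached up to 92.2% of the control with COLCA2 guide 1, 105% with COLCA2 guide 2 and 74.7% with the POU2F3 guide, so a difference was not detectable at this depth with COLCA2 guide 2.

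**Figure D2:**
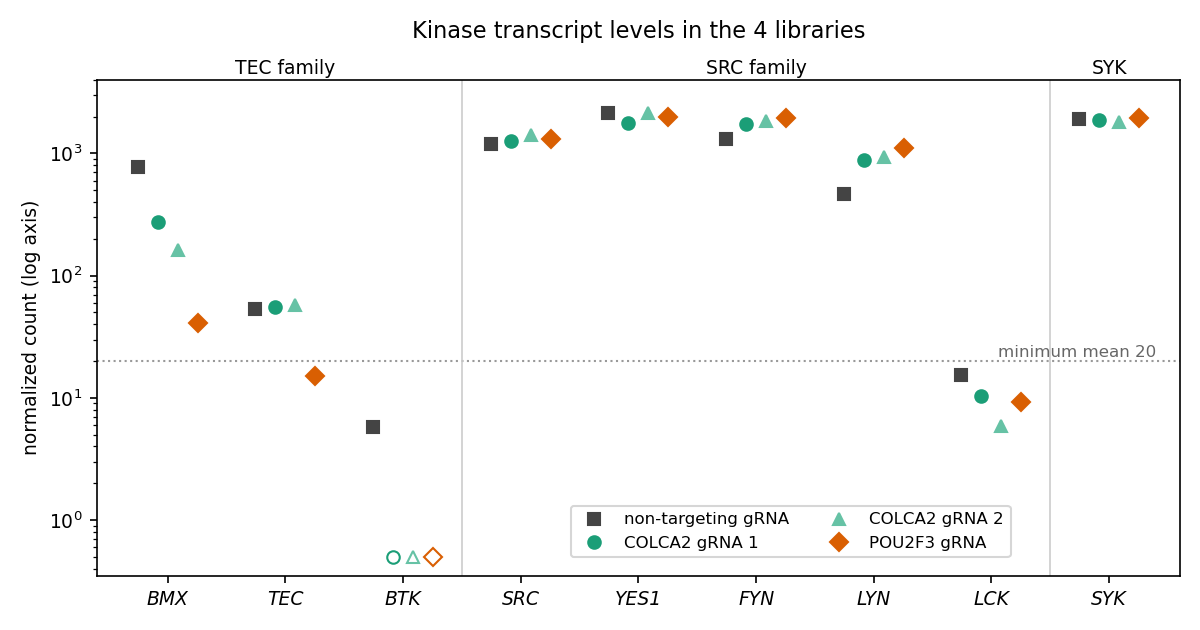
Normalized count of each kinase gene in each of the 4 libraries on a log axis, 1 point per library, with open points at the foot for BTK libraries listed at 0. BMX runs from 771 down to 41.1, TEC is low in the POU2F3 gRNA library only, and LYN is lowest in the control.

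Among the SRC family, LYN and FYN stood furthest above the control in all 3 targeted libraries. LYN, which acts in both activating and inhibitory receptor signalling, had a normalized count of 468 in the control, 881 and 931 with COLCA2 guides 1 and 2, and 1115 with the POU2F3 guide. The control was the lowest library and the COLCA2 guides differed by less than counting error (guide 1 at 94.6% of guide 2, 85.8% to 104%). LYN with the POU2F3 guide was 2.38-fold the control (2.15 to 2.65), a log2 ratio of 1.25. A higher ratio was seen for 756 of 14940 genes.

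For LYN under COLCA2 targeting the log2 ratio averaged 0.95 ± 0.056 (SD, n = 2), and both guides, at 0.91 and 0.99, stood just under the 2-fold limit. The POU2F3 guide's library was 1.27-fold (1.16 to 1.38) and 1.20-fold (1.10 to 1.31) above the guides. By edgeR's test LYN was called against the control with the POU2F3 guide (adjusted p = 0.00188) and with the COLCA2 guides (0.00315), and not between the targets (0.323). The nearest genes in their ratios were GREB1L, PRKG1 and ZNF703, at distances of 0.080 to 0.089. The summed leukocyte markers were likewise lowest in the control, at 179 against 249 to 315, with 3 to 5 of the 12 at 0 in each library. CD68, a lysosomal protein of macrophages, carried this, at 72.6 in the control and 139 to 209 in the targeted libraries. Without CD68 the sums were 106 in the control and 98.8 to 110 in the others (left out after its values were seen). Single markers went both ways, and PTPRC and LYZ were highest in the control. ITGAM was at 0 in the control, at 33.2 and 14.1 with COLCA2 guides 1 and 2, and at 13.4 with the POU2F3 guide. CD14 and NKG7 were highest with the POU2F3 guide. PTPRC, ITGAM, CD14 and NKG7 were all below the minimum.

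FYN, a kinase of adhesion and T cell receptor signalling, was counted at 1304 in the control, 1734 and 1861 with COLCA2 guides 1 and 2, and 1969 with the POU2F3 guide. The control was again the lowest, and 1791 of 14940 genes had a higher log2 ratio than FYN with the POU2F3 guide. The log2 ratio was 0.59 with the POU2F3 guide, 1.51-fold (1.41 to 1.61), and 0.46 ± 0.072 with the COLCA2 guides (SD, n = 2). These are below 2-fold, but the edgeR test called FYN with the POU2F3 guide (adjusted p = 0.0200) and with the COLCA2 guides (0.0259).

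SRC, the prototype of the family, and YES1, its close relative, were near the control. SRC was slightly above the control in all 3 targeted libraries. Its counting intervals left out 100% with COLCA2 guide 2 (110% to 129%) and the POU2F3 guide (102% to 118%). SRC was counted at 1196 in the control, 1267 and 1428 with COLCA2 guides 1 and 2, and 1311 with the POU2F3 guide. Its log2 ratios were 0.084, 0.26 and 0.13 in these libraries, and the edgeR test gave an adjusted p of 0.370 for COLCA2 and 0.572 for POU2F3 targeting. YES1 had 2129 in the control, 1766 and 2133 with COLCA2 guides 1 and 2, and 1986 with the POU2F3 guide. Its lowest library was COLCA2 guide 1, at 82.9% (77.8% to 88.4%) of the control, while guide 2 was at 100.2% (94.2% to 107%). The guides thus differed from each other about as much as any library differed from the control. The processed pseudogene YES1P1 had 0 to 2 reads per library, and an antisense gene, AP001020.3, overlaps YES1 exons by 154 bp, so that its reads cannot be told apart without strand.

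LCK, the SRC family kinase of T cells, had 16 reads in the control, 10 and 5 with COLCA2 guides 1 and 2, and 11 with the POU2F3 guide. All 3 counting intervals of its ratio to the control held 100%.

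SYK, which docks on phosphorylated ITAM receptors and phosphorylates adaptors, was near the control in every library. Its normalized counts were 1909 in the control, 1865 and 1798 with COLCA2 guides 1 and 2, and 1966 with the POU2F3 guide. The log2 ratios were -0.033, -0.086 and 0.042, and each counting interval of a ratio to the control held 100%, the widest reaching from 88.1% to 101% with guide 2.

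**Figure D3:**
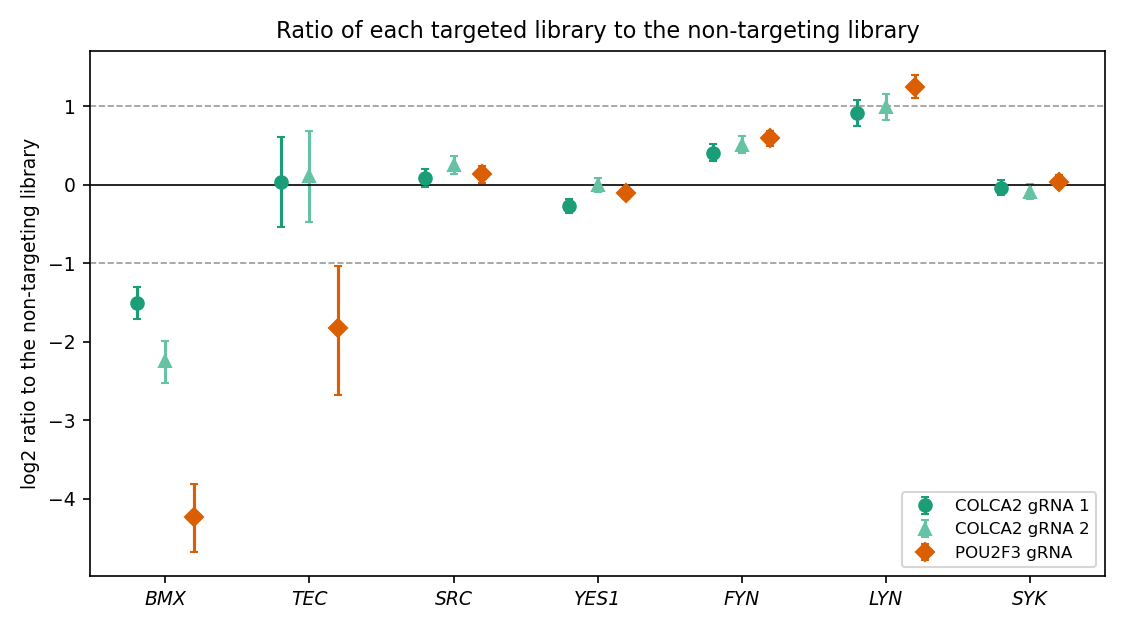
Log2 ratio of each targeted library to the non-targeting library for the 7 kinase genes past the minimum, without a pseudocount. Bars are 95% exact intervals for counting error only, and dashed lines mark 2-fold; BMX lies below the lower line in all 3 libraries, TEC in 1, and LYN passes the upper line with the POU2F3 guide.

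Counted over the 7 members past the minimum, 2 (BMX and TEC) were at least 2-fold lower with the POU2F3 guide, against 3.05% of all genes, and 1 (LYN) was higher, against 6.73%. With both COLCA2 guides 1 (BMX) was lower, against 2.02% of all genes, and none was higher, against 5.79%. Directly, 2 (BMX and TEC) were lower with the POU2F3 guide than with both COLCA2 guides, against 0.924% of all genes, and none was higher, against 0.442%. None differed 2-fold between the guides, against 2.22%. The edgeR test called 1 member lower (BMX, against 3.98% of all genes) and 2 higher (LYN and FYN, against 8.45%) with the POU2F3 guide. It called the same number with the COLCA2 guides, 1 lower (BMX, against 7.51%) and 2 higher (LYN and FYN, against 11.4%). Between the targets it called none, against 0.234% lower and 0.107% higher over all genes. The members were chosen with earlier results of these data known, so these counts describe them and are no test against all genes. The median log2 ratio of all genes was within 0.01 of 0 in each comparison with the control.

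Levels of different members were compared per kilobase of their longest transcript in GENCODE 29. In the control YES1 stood first at 459 normalized counts per kilobase, followed by SYK at 381, FYN at 360, BMX at 297, SRC at 258 and LYN at 80.6, with TEC, LCK and BTK at 14.5, 7.05 and 2.07. With the POU2F3 guide FYN stood first at 543 per kilobase and BMX sixth at 15.8. BMX made up 16.0% of the summed level per kilobase of the 9 genes in the control, 5.89% and 3.32% with COLCA2 guides 1 and 2, and 0.850% with the POU2F3 guide. The summed level itself ranged from 1781 to 1882, and both the shares and this sum depend on the length taken for LYN. The place of LYN depends on the transcript: its longest APPRIS principal transcript, a length chosen after seeing the data, has 2297 bp against 5808 bp, which gives 486 per kilobase with the POU2F3 guide in place of 192 and moves LYN from the fifth place to the second.

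**Figure D4:**
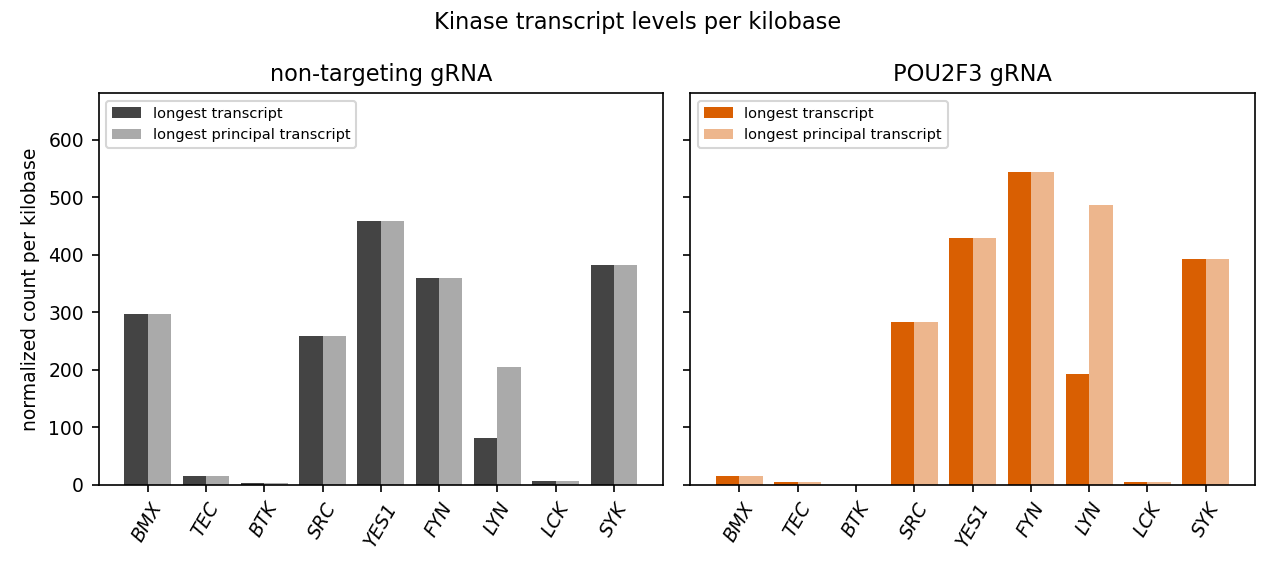
Normalized count per kilobase of the longest transcript (dark bars) and of the longest principal transcript (light bars) in the non-targeting and POU2F3 gRNA libraries, 1 library each and so without error bars. BMX is at 297 on the left and 15.8 on the right, and LYN on the right is at 192 by the longest and 486 by the principal transcript.

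The genes that act with these kinases were taken from lists of related kinases, phosphatases, the PI3-kinase arm, adaptors and substrates, and ITAM receptors. Of 64 such genes 50 passed the minimum. The lists were chosen with earlier results of these data known, so the shares below describe them and are no test against all genes. With the POU2F3 guide 5 (10%) were at least 2-fold lower and 6 (12%) higher, against 3.05% and 6.73% of all genes. With both COLCA2 guides 3 (6%) were lower and 4 (8%) higher, against 2.02% and 5.79%. Their median log2 ratio was 0.084 with the POU2F3 guide and -0.080 and -0.038 with COLCA2 guides 1 and 2.

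Among 14 related kinases, of which 9 passed, 1 was at least 2-fold lower with the POU2F3 guide and none with both COLCA2 guides. This was MATK, a CSK-type kinase, which had a log2 ratio of -1.07 with the POU2F3 guide only, which the edgeR test did not call (adjusted p = 0.159). CSK itself, picked out after its values were seen, was counted at 3952 in the control, 3291 and 2686 with the COLCA2 guides and 2421 with the POU2F3 guide, less than 2-fold apart. By edgeR's test CSK was called with the POU2F3 guide (adjusted p = 0.0299) and not with the COLCA2 guides (0.0778).

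Of 10 phosphatase and adaptor genes acting on SRC kinases, 7 passed. PTPN18, a cytoplasmic phosphatase, was lower in all 3 targeted libraries, with normalized counts of 4934 in the control, 2012 and 1606 with the COLCA2 guides and 1577 with the POU2F3 guide. No gene of this list was at least 2-fold higher with the POU2F3 guide or with both COLCA2 guides.

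In the PI3-kinase arm (10 genes, 9 past the minimum) the catalytic subunits PIK3CG and PIK3CD lay on opposite sides of the control. PIK3CG, the gamma subunit driven by G protein-coupled receptors, was counted at 387 in the control, 119 and 135 with COLCA2 guides 1 and 2, and 46.2 with the POU2F3 guide, 11.9% of the control (8.84% to 15.8%). PIK3CD, the delta subunit, had 282 in the control, 774 and 641 with the COLCA2 guides, and 627 with the POU2F3 guide. PIK3R1, a regulatory subunit, passed 2-fold with the POU2F3 guide only, at a log2 ratio of 1.30.

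Of 25 adaptor and substrate genes, all past the minimum, LCP2 and PLCG2 were lower with the POU2F3 guide. LCP2 (SLP-76), the scaffold that brings TEC kinases to phospholipase C gamma, was counted at 904 in the control, 306 and 180 with COLCA2 guides 1 and 2, and 70.5 with the POU2F3 guide, or 7.80% of the control (6.16% to 9.75%). PLCG2, the phospholipase downstream of BTK, stood at -1.21 on the log2 ratio scale with the POU2F3 guide and averaged -0.63 ± 0.29 (SD, n = 2) over the COLCA2 pair. PIK3CG and LCP2 were also at least 2-fold lower with the POU2F3 guide than with each COLCA2 guide. The edgeR test called neither direct difference (adjusted p = 0.106 and 0.112).

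BLNK, the adaptor that serves the LCP2 role in B cells, was higher in each targeted library, with 11 reads in the control and 38, 40 and 93 with COLCA2 guide 1, COLCA2 guide 2 and the POU2F3 guide. CAV1, the caveolar scaffold and SRC substrate, was counted at 33.4 in the control, 434 and 510 with the COLCA2 guides and 264 with the POU2F3 guide. STAT3, a transcription factor that SRC and BMX phosphorylate, had 2104 in the control and 4351, 4877 and 4541 in the targeted libraries. VAV3, a guanine nucleotide exchange factor, passed 2-fold with the POU2F3 guide only, at 1.34. None of the 5 ITAM receptor genes reached the minimum.

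**Figure D5:**
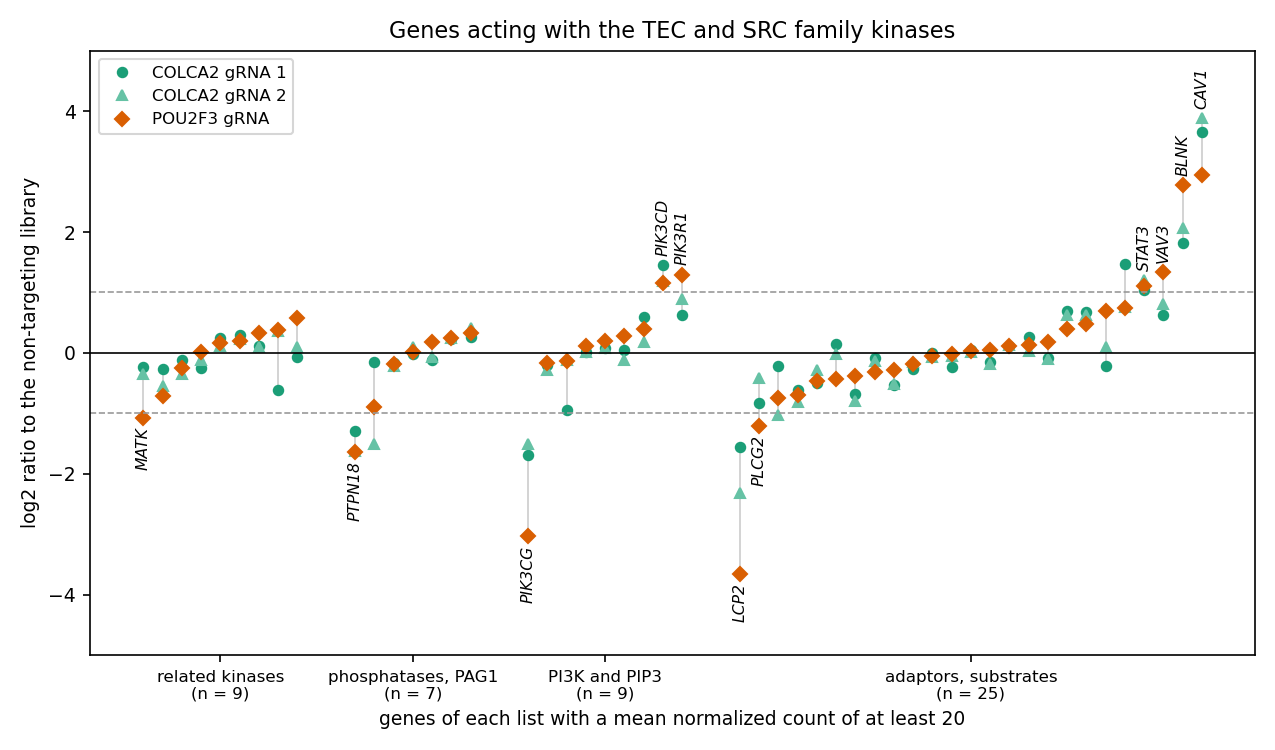
Log2 ratio to the non-targeting library for the 50 genes of the related lists past the minimum, sorted within each list by the POU2F3 gRNA value, with 1 point per targeted library and dashed lines at 2-fold. PIK3CG and LCP2 reach the lowest values with the POU2F3 guide, and CAV1 and BLNK the highest.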

How the data were processed

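Poly(A) RNA was sequenced from 4 libraries of NCI-H1048. The deposited files hold 1 linear signal column each, named normalized count in the file headers. Salmon, DESeq2 and hg38 appear in the submitters' processing notes, while versions and annotation are not given in the sources used here. Every library's values (100%) were whole multiples, within 0.001 read, of 1 step. The inverse steps (0.965, 0.850, 1.19 and 1.05) equalled median-of-ratios factors recomputed from the recovered reads, which may be rounded estimates. Same-symbol rows were summed. Genes with a mean of at least 20 (14940) were compared as log2(value + 1) ratios, called at 2-fold with no test. Exact (Clopper-Pearson) 95% intervals treat reads as independent counts and cover counting error only. Reads are not independent molecules, so the intervals may be too narrow even for that.

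As an alternative, edgeR 4.0.16 (R 4.3.3) tested the recovered reads with TMM factors and Benjamini-Hochberg adjustment at 0.05 over all 14940 genes. Its residual degree of freedom (1) is the difference between both COLCA2 guides, so p-values measure only the spread of that pair. The calls for the POU2F3 guide against the control were tested on simulated data. The simulation took its spread from the COLCA2 pair, so it cannot show how much the lone libraries vary.

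Positions and lengths are from GENCODE 29 (GRCh38), promoter sequences from RefSeq. The members and lists were chosen with earlier results of these data known. A listed kinase and a neighbouring gene are not reported here. Named were the 9 members, list genes 2-fold apart in all targeted libraries or with the POU2F3 guide only, protein-coding neighbours of members 2-fold apart in any library, and the 3 genes nearest to each member past the minimum whose log2 values spanned at least 1. Pseudocount, minimum, fold, scaling, guides and row choice were varied.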

Additional observations from a re-analysis of the deposited data

How the results depend on the processing

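No paired analysis was possible, because the POU2F3 and non-targeting groups hold 1 library each and the labels name no pairing. Of 270 log2 ratios of single members under the alternatives, 7 moved beyond the spread between the COLCA2 guides or, for the POU2F3 guide, beyond the counting interval, and none of 2-fold size changed sign. Many of the 270 could not move, since the fold limit, the minimum and the choice of row leave a member's ratio unchanged. Leaving out a COLCA2 guide also leaves the ratio of the POU2F3 guide to the control unchanged. It cannot shift a ratio with the COLCA2 mean past the spread between the guides. The pseudocounts, 3 scalings and leaving out either COLCA2 guide changed no count of members. The choice of row could not change any, since each member had a single row. Leaving out a COLCA2 guide could alter the calls for the POU2F3 guide against the control only through the minimum.

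A minimum mean of 100, which removes TEC, left 1 member lower with the POU2F3 guide and 1 lower than with both COLCA2 guides. Without a minimum, which admits BTK, 3 were lower with the POU2F3 guide and 2 with both COLCA2 guides. BTK had 0 reads in the targeted libraries, so its log2 ratio of -2.75 there is set by the pseudocount and 6 control reads. A 1.5-fold limit gave 2 higher with the POU2F3 guide, 1 higher with both COLCA2 guides and 1 apart between these. A 4-fold limit gave 1 lower and 0 higher with the POU2F3 guide, 0 lower with both COLCA2 guides and 0 lower between the targets. The edgeR test called 1 lower and 2 higher with the POU2F3 guide, 2 higher with the COLCA2 guides and 0 lower between the targets. By principal transcript, a choice made after seeing the data, LYN ranked 2 with COLCA2 guide 1, 3 with guide 2 and 2 with the POU2F3 guide, against 5 by the longest transcript.

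Over all genes the counts lower and higher were 455 and 1005 for the POU2F3 guide, 302 and 865 for both COLCA2 guides, and 138 and 66 between the targets, with 331 apart between the COLCA2 guides. With no minimum these became 1639, 2551, 1028, 1857, 791, 812 and 4668. With a minimum of 100 they were 233, 631, 177, 580, 62, 11 and 54. At 1.5-fold they were 1149, 1822, 901, 1451, 373, 287 and 1051, and at 4-fold 113, 365, 44, 346, 27, 12 and 66. A pseudocount of 10 gave 37 higher between the targets and 205 apart between the COLCA2 guides. Without COLCA2 guide 1, 547 were lower with COLCA2, and 270 lower and 208 higher between the targets. Without guide 2 these were 484, 225 and 233. The edgeR test called 1122 lower and 1709 higher with the COLCA2 guides, and 35 and 16 between the targets. Under the scalings the median log2 ratio over all genes lay between -0.079 and 0.0077. TEC with COLCA2 guide 1 went from 0.038 to -0.035 under equal totals.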
